A study of Mus musculus with 4 samples.

Results

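The genes for the proteins of the cytoplasmic ribosome were followed across 4 lung tumours of KP mice. They were taken as the rows of the count table whose symbol is Rpl or Rps followed by a number and at most 1 letter a, x or y, together with Rplp0, Rplp1, Rplp2 and Rpsa, and rows named as pseudogenes were left out. This took 76 of 39017 genes. The identifier of 75 of these rows is that of a ribosomal protein gene in the annotation, 45 of the large subunit and 30 of the small. The row with the symbol Rpl24 carries the identifier that the annotation gives to Zbtb11, a zinc finger gene, and was kept out of the summaries below.

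The tumours form 1 group, labelled Control. The mice were male, of strain C57BL/6, and carried the conditional alleles of the KP model, among them p53Fl/Fl, in which Cre recombinase deletes Trp53. Cre came from 1500 units of a lentivirus placed in the trachea, under the PGK promoter, which is active in most cell types and so does not restrict the cell in which a tumour starts. The labels also give the genotype as heterozygous fl/wt without naming the gene, while columns of a deposited table mark the tumours WT, and the study's methods let its controls carry 1 floxed copy of a glucose transporter gene. Tumours were macrodissected 22 weeks and 5 days after the virus, dissociated and sequenced with 1 library each, and no untreated lung or second group was analysed here. The study's methods describe both whole suspensions and suspensions depleted of CD45+ immune cells, and the labels of these tumours mention no depletion. The labels do not say that each tumour came from its own mouse, so the spread below is that between these 4 samples.

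A ribosome joins a small subunit, which reads the mRNA, to a large subunit, which forms the peptide bond. Each holds ribosomal RNA and many proteins, nearly all present in 1 copy, and the mRNAs of these proteins are among the most abundant of a growing cell. Most begin with a run of pyrimidines, the terminal oligopyrimidine (TOP) motif, through which mTOR and the RNA-binding protein Larp1 control their translation. Mammalian genomes also hold many processed pseudogenes, reverse-transcribed copies of these mRNAs that are often nearly identical to the parent gene.

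The starts of the genes were read from RefSeq (GRCm38.p6), which gave an entry for 55 of the 75 members. A run of at least 8 pyrimidines (C or T on the gene's strand) lay within 50 bases of the start in 87.3% of these, against 39.3% of 27025 genes, and a run of at least 10 in 42 of 55 against 20.6% of all genes. The following windows of 30 bases, 5′ to 3′ on the gene's strand with the longest run in capitals, show the pyrimidine tracts of 4 members with high levels per kb. The longest, in Rps24, has 19 bases. Runs were read only within 50 bases of the annotated start, so that of Rpl26 is cut at this limit, and that of Rpl41 ends at it. In Rps24, Rpl4, Rpl26 and Rpl41 the runs begin at -37, 26, -50 and 40 bases from that start. None of them covers the annotated start, so they are not shown to be TOP motifs.
Rps24, chr14:24490710-24490739, plus strand: gagcggTCCTCTTTTCCTCCTCTCCagctc
Rpl4, chr9:64173405-64173434, plus strand: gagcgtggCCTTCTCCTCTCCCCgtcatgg
Rpl26, chr11:68901508-68901537, plus strand: tcccaaccTCCTCTCCCCTTTCgctccgag
Rpl41, chr10:128549119-128549148, minus strand: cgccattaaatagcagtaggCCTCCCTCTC

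The next windows belong to members whose longest run is under 8 bases, and are shown as a contrast, since Rplp0, Rps3 and Rps4x return among the results below.
Rplp0, chr5:115559466-115559495, plus strand: aggaccgcctggTTCTCCTataaaaggcac
Rps3, chr7:99483739-99483768, minus strand: cgcaaaacttcaTTTCCCatgcaaaacttc
Rps28, chr17:33824567-33824596, minus strand: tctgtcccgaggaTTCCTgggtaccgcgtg
Rps4x, chrX:102189342-102189371, minus strand: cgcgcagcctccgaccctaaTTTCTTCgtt

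The annotated start may differ from the base at which these mRNAs begin in the tumours, so a short run says only that no longer one lies within 50 bases of it. Other motifs were searched in the 300-base entries, from 250 bases before to 50 after the start. CCGGAAG, the core of an ETS factor site, was found on the gene's strand in 14 of the 55 members against 5.40% of all genes, and on the opposite strand in 18.2% against 5.40%. CTTTCC, which can itself be part of a pyrimidine run, was found in 23 of 55 on the gene's strand against 4328 of 27025 genes, and in 16.4% against 16.1% on the opposite strand. TATAAA was found in 9.09% on the gene's strand against 9.77% of all genes, and in 3.64% against 7.95% on the opposite strand. AAGATGGC, the core of a YY1 site, was found in 2 members (3.64%) on the gene's strand against 1.98% of all genes, and in 3 members (5.45%) against 1.23% on the opposite strand.

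Levels are given as CPM, the count per 1000000 of the effective library size (the total multiplied by the TMM factor). Total counts lay between 8151613 and 8799007 per tumour, and 3 counts, the most that a count of 0 allows, corresponded to 0.330 to 0.370 CPM. Spread is the SD of log2 CPM over the 4 tumours. The epithelial and alveolar type 2 markers that define the labelled tissue were present in each tumour, with summed levels of 2488 to 3972 CPM and 32860 to 60875 CPM. Tumour 3 had the highest level of 5 of 6 pan-leukocyte genes, and tumour 1 the lowest level of 6 of 8 alveolar type 2 genes.

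The 75 genes together held 2.46, 2.24, 1.84 and 2.36% of all counts in tumours 1 to 4, a mean of 2.23% ± 0.270 (SD, n = 4). The 95% Wilson interval was 1.84 to 1.85% in tumour 3 and 2.23 to 2.25% in tumour 2, the next lowest, and the intervals of no pair of tumours overlapped. The lowest share was therefore that of tumour 3, and the highest was 1.33 times as large. Reads carried no molecular identifiers, so these intervals cover counting error only. With the 294 near-identical genes of the count table added, the share was 3.19, 2.90, 2.37 and 3.01% in tumours 1 to 4, with tumour 3 again lowest.

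**Figure D1:**
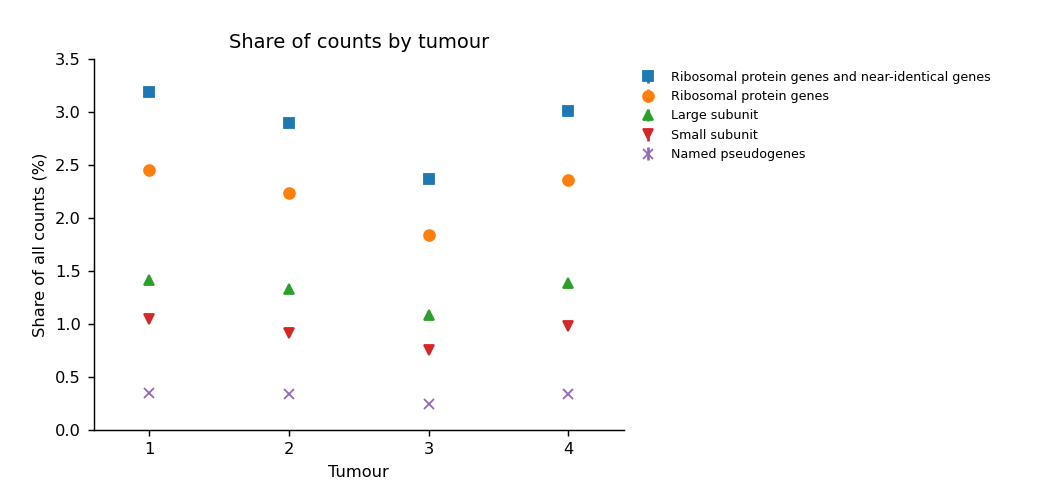
Share of all counts (%, vertical axis) held by the ribosomal protein genes, by each subunit, by the named pseudogenes and by the genes with their near-identical genes, in each of the 4 tumours (horizontal axis). Error bars are 95% Wilson intervals and are smaller than the symbols. Each of the 5 sets had its lowest share in tumour 3.

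Most members were also lowest in tumour 3. Of the 75 genes, 52 were lowest in tumour 3, where 32.5% of all 14225 genes tested (mean CPM 1 or more) were lowest. Tumour 1 was lowest for 13 members (30.4% of all genes tested), tumour 2 for 6 (19.4%) and tumour 4 for 4 (17.7%). Highest levels fell in tumour 1 for 35 members (31.4% of all genes tested), in tumour 4 for 21 (18.0%), in tumour 2 for 13 (20.4%) and in tumour 3 for 6 (30.2%). The median log2 deviation of the members from their own mean was 0.13, 0.07, -0.26 and 0.09 in tumours 1 to 4, against 0.01, 0.01, -0.01 and 0.01 over all genes tested. The mean log2 CPM over the members was 7.63, 7.52, 7.26 and 7.59, with an SD of 0.17 over tumours. Without tumour 3 that SD was 0.057, so this library set most of the spread that the members shared.

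The small subunit moved in the same order as the large. Its 30 genes included 25 that were lowest in tumour 3 and 0 that were highest there, while 27 of the 45 large subunit genes were lowest there and 6 highest. The 6 genes with their highest level in tumour 3 were Rpl5, Rpl9, Rpl10, Rpl27a, Rpl31 and Rpl36a. Rpl36a had 45.7, 62.0, 91.4 and 58.4 CPM in tumours 1 to 4, and Rpl27a had 125, 155, 220 and 131 CPM. The differences of Rpl31 did not pass the test of spread described below. Summed with near-identical genes, Rpl10, Rpl27a and Rpl36a were again highest in tumour 3, whereas Rpl31 was highest in tumour 2 and Rpl5 and Rpl9 in tumour 4.

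**Figure D2:**
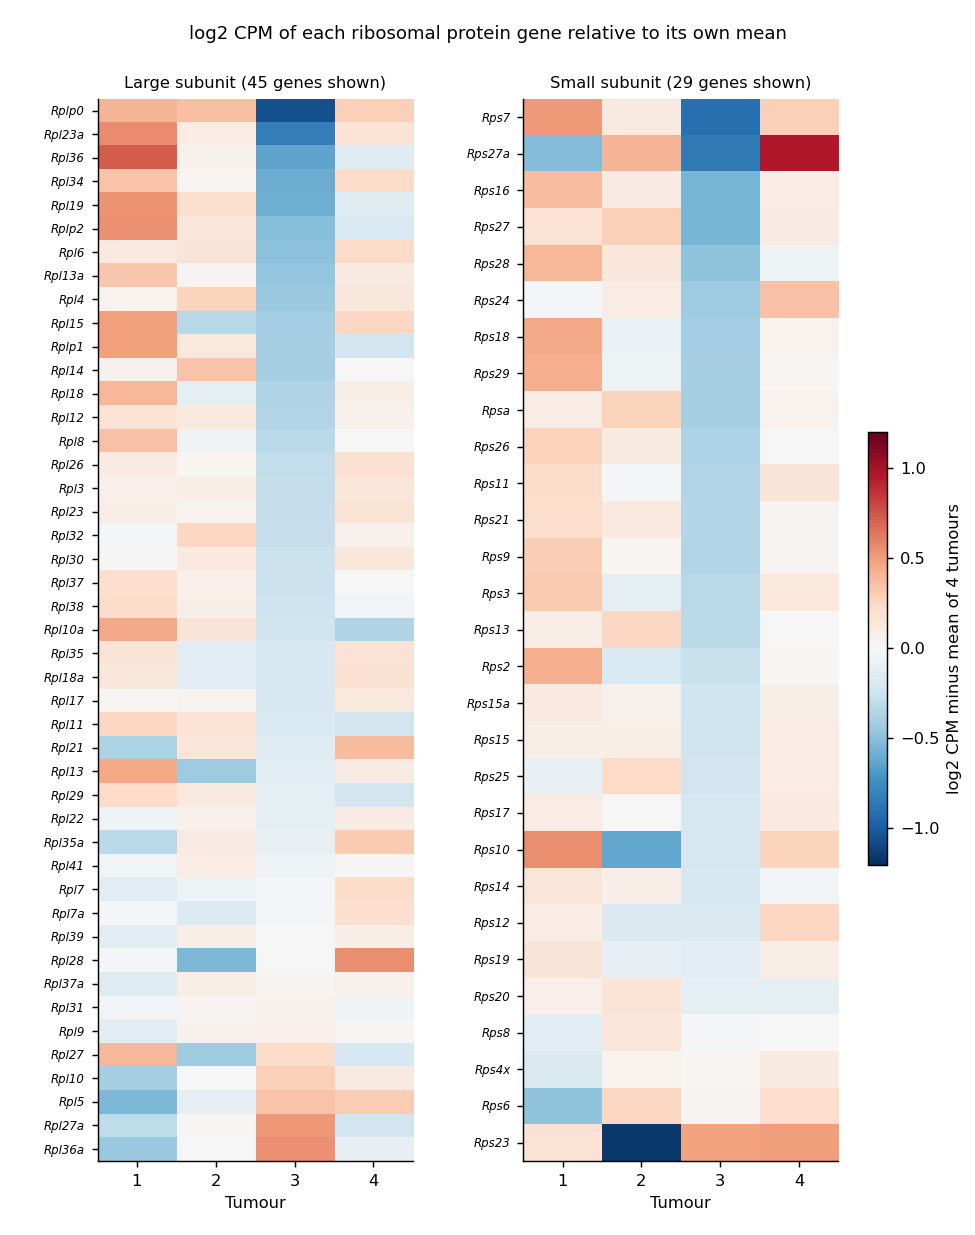
Colour map of log2 CPM minus the mean of 4 tumours for each ribosomal protein gene (rows) in each tumour (columns), with large subunit genes on the left and small subunit genes on the right, sorted by the value in tumour 3, with 1 small subunit gene not shown. Red is above and blue below the gene's own mean. Blue prevails in the column of tumour 3, where 52 of 75 genes were lowest, and Rps27a and Rps23 show the widest contrasts.

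Several other measures moved with tumour 3. The summed level of the 6 T cell markers was 6.16, 7.09, 22.1 and 6.66 CPM in tumours 1 to 4. Cd2 alone gave 12.6 CPM of this in tumour 3, and no T cell marker was at 0. Lck went the other way, with 3.52, 2.67, 2.34 and 2.74 CPM, lowest in tumour 3. Cd3g had only 5, 5, 27 and 3 counts. The 3 plasma cell markers of the table summed to 7.15, 14.8, 54.4 and 12.5 CPM, of which Igkc alone gave 53.7 CPM in tumour 3, where Tnfrsf17 was at 0. The mean log2 CPM of the 6 pan-leukocyte genes was 5.02, 5.36, 6.10 and 5.42, although their summed level was highest in tumour 2 (832 CPM, against 526 to 812 in the others) through the actin-bundling gene Lcp1. No pan-leukocyte gene was at 0 in any tumour. Macrophage markers summed to 181, 197, 261 and 186 CPM and endothelial markers to 191, 186, 239 and 185 CPM, with tumour 3 highest in both. Without Mrc1 the macrophage sum was 137, 158, 153 and 133 CPM, with tumour 3 no longer highest, and Pecam1 gave 110 CPM of the endothelial sum in tumour 3. B cell markers summed to 6.16 to 18.4 CPM. Among fibroblast markers Dcn had 37.3, 57.4, 138 and 65.2 CPM, highest in tumour 3, while Col1a1 had 125, 66.9, 49.4 and 32.2 CPM. Epcam, an epithelial adhesion gene, had 600, 470, 218 and 371 CPM, whereas Cdh1, the epithelial cadherin, had 842, 887, 846 and 876 CPM. In a mixed sample a lower share of a cell type and less of the RNA in each of its cells cannot be told apart, and the part of these markers in the ribosomal protein values was not tested.

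Spread beyond counting noise was found for 73 of 75 members, against 76.7% of all genes tested, tested by chi-square on each gene's counts, with Poisson expectations proportional to effective library size and Benjamini-Hochberg adjustment over 14225 genes at a threshold of 0.05. Among the 2420 genes averaging 100 CPM or more the share was 96.8%, close to that of the members, whose median level was 190 CPM. The genes that did not pass were Rpl31 (adjusted p = 0.133 over all genes tested, chi-square test) and Rps13 (adjusted p = 0.0788, chi-square test), the latter with a mean of only 11.7 CPM. The median SD of log2 CPM was 0.28 over the members, 0.29 over all genes tested and 0.22 over genes with a mean of at least 100 CPM. Without tumour 3 the members' median SD was 0.17. After the median shift of each tumour was subtracted it was 0.21, with a smaller SD for 54 of 75 genes. The shifts were taken from these same genes, so a smaller SD for most of them was in part built in. No other set was treated this way.

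The 5 genes with the largest spread among those with a mean of at least 10 CPM were Rps27a, Rps23, Rplp0, Rps7 and Rpl23a, with SDs from 0.84 down to 0.59. Rps27a, which encodes ubiquitin fused to a small subunit protein, had 70.3, 134, 56.1 and 198 CPM in tumours 1 to 4, a 3.52-fold range. Rps23, a protein of the decoding centre, had 93.9, 37.3, 116 and 118 CPM and was low in tumour 2. Rps7 had 176, 134, 66.02 and 151 CPM, and Rpl23a, which lies at the exit of the peptide tunnel, had 84.1, 60.4, 31.96 and 63.6 CPM. Rps7, Rpl23a and Rps27a were lowest in tumour 3, and Rps23 was not.

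The 5 genes with the smallest spread were Rpl31, Rpl41, Rpl9, Rpl22 and Rpl39, all of the large subunit, with SDs between 0.05 and 0.09. Rpl31 had 184, 193, 195 and 181 CPM. Rpl41, which encodes a very short and basic peptide, had 342, 371, 335 and 353 CPM. Of all 75 members, 41 had an SD under 0.3, and 11 of 75 members had a highest level above 2 times the lowest. The median SD over all genes tested was 0.29, so an SD under 0.3 was not particular to the members. The share of all genes with a range above 2-fold was not counted.

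Dixon's ratio divides the gap between the outermost tumour and its neighbour by the range of log2 CPM. It passed the 95% critical value for 3 of 75 members, against 5.86% of all genes tested. In each of these members tumour 3 was low. Tumour 3 was apart and low in 1.38% of all genes tested. Rplp0 had 1018, 983, 368 and 931 CPM in tumours 1 to 4. Rpl6, a large subunit protein, had 338, 348, 222 and 368 CPM. Rps15, a small subunit protein near the decoding site, had 328, 329, 264 and 333 CPM. That tumours 1, 2 and 4 lay close together in these 3 genes follows from the ratio by which the genes were picked.

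The members were then grouped by role. The P stalk recruits translation factors to the large subunit and consists of Rplp0 and the acidic proteins Rplp1 and Rplp2, with Rpl12 at its base. Rplp1 had 150, 117, 81.1 and 91.6 CPM in tumours 1 to 4. Rplp2 had 137, 103, 65.7 and 82.5 CPM, and Rpl12 had 289, 277, 201 and 266 CPM. All 4 stalk genes, including Rplp0, were highest in tumour 1 (31.4% of all genes tested) and lowest in tumour 3 (32.5%). Their summed level was 1594, 1480, 715 and 1371 CPM.

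Rpl5 and Rpl11 form a particle with 5S ribosomal RNA that joins the large subunit and, when ribosome assembly is disturbed, binds Mdm2. Rpl5 had 397, 539, 733 and 713 CPM in tumours 1 to 4 and was lowest in tumour 1, while Rpl11 had 119, 113, 88.2 and 85.99 CPM and was lowest in tumour 4. With near-identical genes the lowest tumour changed for both, since the sum of Rpl5 was lowest in tumour 2 (851 CPM, against 862 to 1039 in the others) and that of Rpl11, with 232, 216, 190 and 196 CPM, in tumour 3. A list of 6 other members known to bind Mdm2 was also read, namely Rpl23, Rpl26, Rps3, Rps7, Rps14 and Rps27. All 6 were lowest in tumour 3, as were 52 of all 75 members and 32.5% of all genes tested. Rps3, a protein of the mRNA entry channel that is also known for its roles in DNA repair, was the most abundant of these and had 1337, 994, 858 and 1178 CPM. Mdm2 itself had 51.1, 78.4, 83.8 and 76.2 CPM and was lowest in tumour 1.

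At the exit of the peptide tunnel the nascent chain meets Rpl17, Rpl19, Rpl23a, Rpl26, Rpl31, Rpl35 and Rpl39. Of these 7 genes 6 passed the test of spread (76.7% of all genes tested), and 5 were lowest in tumour 3 (32.5%). Rpl31 and Rpl39 were the exceptions, and Rpl39 had 213, 245, 233 and 244 CPM, lowest in tumour 1. Rps6, the small subunit protein that S6 kinase phosphorylates when mTOR is active, had 339, 561, 483.5 and 542 CPM, and its lowest level was also in tumour 1.

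The 4 members on the X chromosome were Rpl10, Rpl36a, Rpl39 and Rps4x, and all 4 were lowest in tumour 1, a grouping chosen after their values were seen. Rps4x had 942, 1093, 1073 and 1138 CPM in tumours 1 to 4. Rpl10, which completes the large subunit late in its assembly, had 153, 203, 246 and 217 CPM. Over all genes tested 30.4% were lowest in tumour 1, and among the 485 genes tested on the X chromosome 44.5% were. Shifts shared by a whole chromosome were also seen elsewhere: tumour 3 held the lowest level of 65.0% of the genes tested on chromosome 3 and of 14.3% on chromosome 13, and tumour 1 of 66.4% on chromosome 16.

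The members lie on 19 chromosomes, with 14 of them on chromosome 7. Of these 14 genes 12 were lowest in tumour 3, where 41.0% of all genes tested on chromosome 7 were. On chromosome 10 all 4 members were lowest there against 22.4% of its genes, and on chromosome 15 all 4 against 39.8%. After the median deviation of the genes tested on the same chromosome was subtracted from each member, an alternative added after the values were seen, 55 of 75 members were lowest in tumour 3 and the median value of the members there was -0.20. The number of members lowest in tumour 3 was thus similar when each gene was read against its own chromosome, while their median there moved from -0.26 to -0.20. Shifts of part of a chromosome were not tested.

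**Figure D3:**
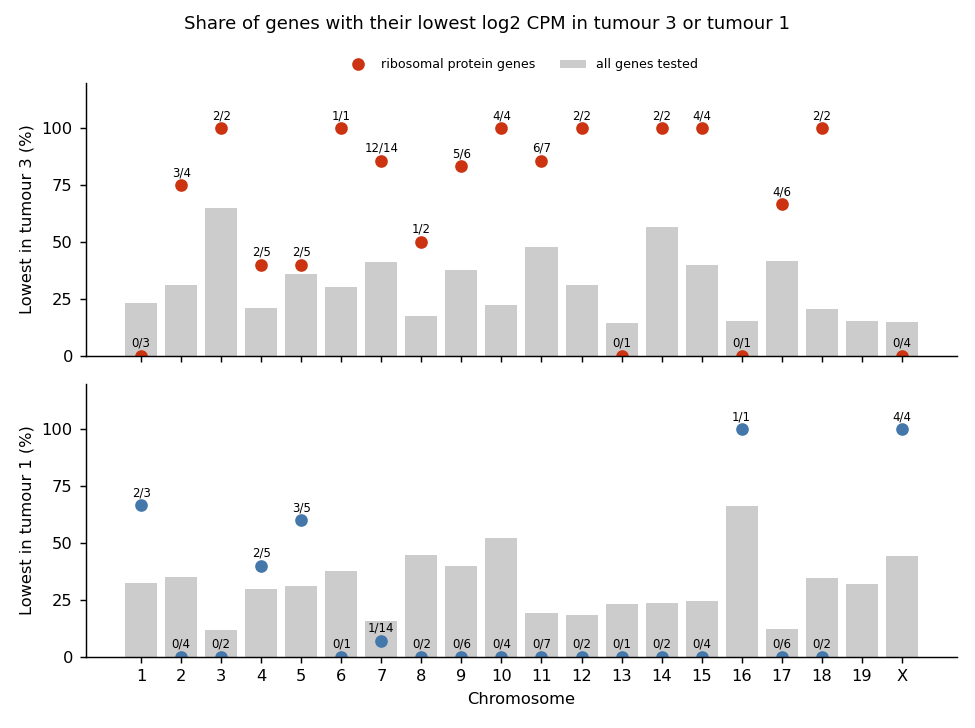
Share of genes (%, vertical axes) with their lowest log2 CPM in tumour 3 (upper panel) and in tumour 1 (lower panel) on each chromosome (horizontal axis). Grey bars are all genes tested and points are the ribosomal protein genes, with the number lowest over the number on that chromosome. On chromosome 7 the point of the upper panel stands at 12 of 14 genes above a bar of 41.0%, and on the X chromosome the point of the lower panel stands at 4 of 4.

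Levels between genes were compared per kb of the main transcript, the shortest coding transcript, with consensus (CCDS) models taken first. The 5 highest members were Rpl32 with 1335 ± 200 CPM per kb (SD, n = 4), Rps24 with 1225 ± 264, Rps4x with 1089 ± 86.2, Rps14 with 929 ± 93.3 and Rpl7 with 914 ± 102. Neighbours in this order differed by less than the SD of at least 1 of them, save Rps4x and Rps14. The 5 lowest were Rps13 with 19.8 ± 3.14 CPM per kb, Rpl27 with 22.4 ± 5.79, Rps29 with 24.8 ± 6.09, Rpl36 with 32.5 ± 13.2 and Rpl28 with 52.8 ± 16.6. The highest and lowest members differed 67.3-fold.

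Near-identical copies bear on these levels. At least 1 near-identical gene, sharing 80 nt at 97% identity or more in annotated transcripts, was found for 69 of 75 members, and 356 of the 386 such genes are annotated as pseudogenes. Each main transcript was cut into all its 85-nt windows, the length of a read, and the share of windows with no exact copy in annotated transcripts of another gene was a median of 52.9%. It was 1.53% for Rps27, 8.25% for Rpl10 and 10.7% for Rps12, and 100% for Rps3. The median level was 596 CPM per kb in the 16 members with at least 75% unique windows, 233 CPM per kb in the 45 members with 25 to 75%, and 150 CPM per kb in the 14 members under 25%. Across the 75 genes, which are not independent replicates, Spearman's rho between unique share and level per kb was 0.395. How the counting treated reads with several matches is not given in the sources used here, so the counts of members with copies are uncertain.

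**Figure D4:**
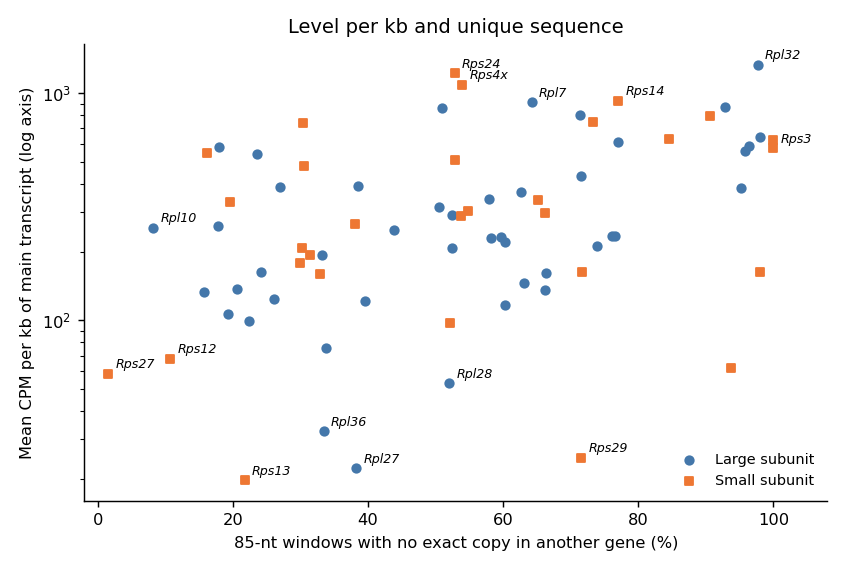
Mean CPM per kb of the main transcript (vertical axis, log scale) against the share of its 85-nt windows with no exact copy in another annotated gene (%, horizontal axis), 1 point for each of 75 ribosomal protein genes. Members with few unique windows, such as Rps27, Rps12 and Rps13, lie mostly in the lower part, while Rpl32 with 97.7% unique windows is the highest.

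Counting only unique windows as length raised the level per kb more than 2-fold in 41 of 75 members, among them Rps27 (from 58.3 to 5027 CPM per kb), Rps6 (from 548 to 3759) and Rpl10 (from 256 to 3465). The median over members under 25% unique windows then became 1342 CPM per kb, above the 687 of those with at least 75%. Only the length changed here and not the counts. A transcript also holds fewer 85-nt windows than bases, so short transcripts rose for that reason too. The value of Rps27 rests on 4 unique windows. An order of levels between these genes therefore depends on how shared sequence and length are treated.

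The order of the tumours was also read within these classes. Among the 16 members with at least 75% unique windows 14 were lowest in tumour 3 and 0 were highest there, and their median deviation in tumour 3 was -0.30. Rpl32, with 97.7% unique windows and no near-identical gene in the table, had 675, 813, 563 and 709 CPM in tumours 1 to 4, and tumour 3 was lowest. Among the 14 members under 25% unique windows 6 were lowest in tumour 3. When the counts of each member and its near-identical genes were summed, 58 of 75 sums were lowest in tumour 3.

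Single genes changed more. For Rps27a the sum with its near-identical genes was 210, 173, 162 and 275 CPM in tumours 1 to 4, a 1.70-fold range against 3.52-fold for the gene alone, and its pseudogene Rps27a-ps2 had 85.3, 0.581, 74.04 and 31.2 CPM. For Rpl5 the sum was 893, 851, 862 and 1039 CPM, no longer highest in tumour 3, with the pseudogene Gm15500 at 492, 281, 63.3 and 278 CPM. A smaller copy of Rpl5, Gm14217, had 2.97, 29.97, 64.3 and 46.98 CPM. For Rplp0 the sum was 1152, 1110, 620 and 1064 CPM, and tumour 3 remained lowest. For Rps23 the sum was 114, 51.2, 272 and 140 CPM, a 5.31-fold range, with the pseudogene Gm14633 at 9.02, 0.813, 127 and 4.28 CPM in tumours 1 to 4. The row named Rps23-ps had 143, 214, 101 and 181 CPM, and is 1 of 11 among the 62 named pseudogene rows averaging 1 CPM or more that were not found as near-identical. With it the sum was 257, 265, 373 and 321 CPM, a 1.45-fold range, so the width of the range depended on which copies were added. Of the 66 members with a near-identical gene in the count table, 36 had a smaller SD after summing.

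**Figure D5:**
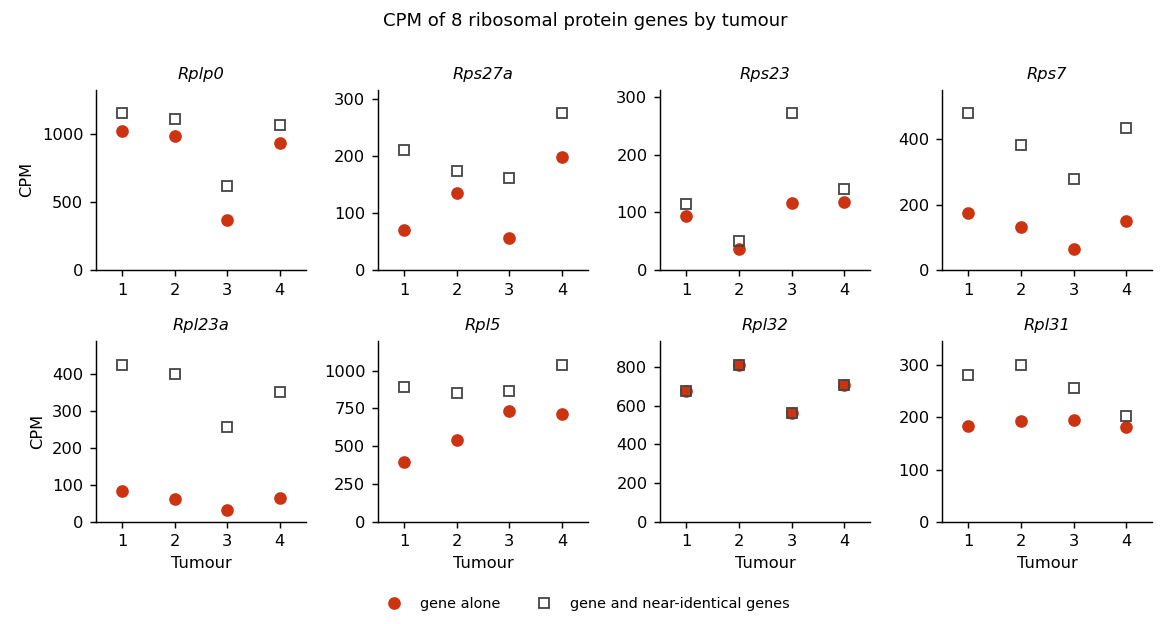
CPM (vertical axes, from 0) of 8 ribosomal protein genes in each tumour (horizontal axes), for the gene alone (filled circles) and for the gene summed with its near-identical genes (open squares). Rplp0 stays lowest in tumour 3 either way, the contrasts of Rps27a and Rpl5 narrow in the sum, and Rpl32 has no near-identical gene in the table.

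Rows named as ribosomal protein pseudogenes numbered 221, of which 146 had at least 1 count. Their counts amounted to 14.1, 14.9, 13.4 and 14.2% of those of the members in tumours 1 to 4 (mean 14.2% ± 0.639, SD, n = 4). Of the 62 such rows with a mean CPM of at least 1, 32 had a highest level above 2 times the lowest, against 11 of 75 members, and their median SD was 0.48. For Rps13, Rpl27 and Rps29, which are among the lowest members per kb, most counts of the family lay on pseudogene rows, and the gene itself held 8.39, 10.3 and 6.38%.

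For Rpl24, the row with that symbol had 25.7, 32.9, 47.4 and 36.99 CPM in tumours 1 to 4. The identifier that the annotation gives to Rpl24 stands in the table under the symbol RPL24, with 23, 42, 29 and 29 counts and a mean of 3.61 CPM. With all 76 rows the numbers were 74 called and 52 lowest in tumour 3. Among ribosomal proteins outside the rule, Rps3a1 had a mean of 525 CPM and Fau, a fusion of a ubiquitin-like protein with a small subunit protein, of 195 CPM.

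Rpl30 was the gene to which the study's methods normalised real-time PCR. Its 4 exons span chr15:34440505-34443640 (GRCm38, minus strand). It had 83.3, 89.3, 68.7 and 90.4 CPM in tumours 1 to 4, so tumour 3 was lowest and the highest level was 1.31 times the lowest. Its SD of log2 CPM was 0.18, the 18th smallest of 75, and without tumour 3 it was 0.064. It held 31.7% of the counts of its family, since the near-identical gene Gm12191 had 176, 192, 152 and 191 CPM. The probe's own target was not analysed here.

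Several ribosomal protein genes have an expressed second copy, and 5 such pairs had the paralog above 3 counts in at least 1 tumour. Per kb, Rpl7l1 was below Rpl7 by a mean log2 difference of -3.12 ± 0.40 (SD, n = 4), Rpl22l1 below Rpl22 by -2.39 ± 0.73 and Rpl3l, a gene of heart and skeletal muscle, below Rpl3 by -9.88 ± 1.01, each in 4 of 4 tumours. Rpl3l had only 2, 6, 9 and 5 counts in tumours 1 to 4, a mean of 0.656 CPM, below the 1 CPM filter. The size of its difference therefore depends on the added count (-9.50 with 2 added to each count). Rpl36al was above Rpl36a by 1.41 ± 0.47 and Rps27l above Rps27 by 0.93 ± 0.33, also in 4 of 4 tumours. With unique windows as length these last differences reversed, to -0.67 and -5.13. Each of the 5 comparisons had p = 0.13 (exact permutation by flipping signs, two-sided, adjusted p = 0.13 over 5 pairs), the smallest that 4 tumours allow, so none could pass 0.05. Rpl10l and Rpl39l had at most 1 count in any tumour and were not detectable at this depth.

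Rpl22l1 (chr3:28805436-28807424, GRCm38, plus strand) is the paralog whose mRNA the Rpl22 protein is known to repress. It had 87.8, 82.8, 28.1 and 84.6 CPM in tumours 1 to 4, and tumour 3 stood apart by Dixon's ratio. On its chromosome 65.0% of the genes tested were lowest in tumour 3, with a median deviation of -0.34 there. The part of this in the level of Rpl22l1 was not tested. Rpl22 had 295, 317, 284 and 326 CPM, with its lowest level in the same tumour. Rpl36al was even with 186, 185, 170 and 180 CPM.

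The large subunit genes had a lower median level per kb than the small subunit genes. The difference in median log2 CPM per kb, large minus small, was -0.31, -0.38, -0.19 and -0.24 in tumours 1 to 4. It averaged -0.28 ± 0.08 (SD, n = 4), with p = 0.13 by the same exact permutation, the smallest the design allows. It reversed to 0.22 when all annotated exons of a gene were taken as its length, and to 0.50 over the 6 members without a near-identical gene.

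The members are short genes. Their main transcripts had a median of 681 nt and 5 exons, against 2637 nt and 9 exons over 12925 protein-coding genes tested. Small nucleolar RNAs (snoRNAs), which guide the chemical modification of ribosomal RNA, are often cut from introns of ribosomal protein genes, and 29 of 75 members (38.7%) held at least 1 annotated snoRNA gene, against 1.63% of protein-coding genes tested. Members with and without one had a median deviation in tumour 3 of -0.27 and -0.24. At least 1 annotated antisense gene overlapped 21 members, and since the strand setting of the counting is not given in the sources used here, their reads may not be separated.

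Genes that act with the ribosomal proteins were read in the same way. Of 21 translation factor and other TOP mRNAs in the table, 12 were lowest in tumour 3 (32.5% of all genes tested). The mean log2 CPM of the 21 was 8.68, 8.67, 8.45 and 8.65 in tumours 1 to 4. All 21 passed the test of spread, as did 96.8% of genes averaging 100 CPM or more and 76.7% of all genes tested. Pabpc1, the cytoplasmic poly(A)-binding protein, had 1054, 913, 504 and 898 CPM. Eef1a1, which brings aminoacyl-tRNA to the ribosome and was the most abundant of them, had 6109, 8299, 6869 and 6862 CPM, and Tpt1 had 780, 1861, 755 and 964 CPM. The list was low in tumour 3 by a median deviation of -0.12, a smaller shift than that of the members.

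Of 38 ribosome assembly and ribosomal RNA synthesis genes, 24 were highest in tumour 1 (31.4% of all genes tested) and 16 lowest in tumour 3 (32.5%). The test of spread was passed by 33 of 38 (76.7% of all genes tested). The 80 genes of the mitochondrial ribosome were also mostly highest in tumour 1 (43 of the 78 tested), with 57 past the test (73.1%, against 76.7% of all genes tested), and 30 of the 78 were lowest in tumour 3 against 32.5% of all genes. Their median deviation was 0.15, -0.003, -0.06 and -0.08 in tumours 1 to 4, so tumour 3 was not set apart for this ribosome. Proliferation genes were highest in tumour 1 in 5 of 6 cases (31.4% of all genes tested), with a mean log2 CPM of 6.20, 5.83, 5.71 and 5.54.

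A list of 11 regulators held genes of the Myc and mTOR pathways and also Mdm2, Trp53 and Cdkn1a of the p53 pathway. Of these 11 genes 9 passed the test of spread (76.7% of all genes tested) and 6 were lowest in tumour 3 (32.5%). Trp53 (9.75 CPM in tumour 3) and Cdkn1a (32.2 CPM) were among those 6, so the count does not describe ribosome production alone. Larp1, which binds TOP mRNAs, had 199, 200, 121 and 190 CPM in tumours 1 to 4 and stood apart in tumour 3. Mycn, a Myc family factor, had 72.1, 59.7, 17.8 and 52.5 CPM, and Myc, which drives transcription of ribosomal protein genes, had 32.9, 17.5, 18.6 and 26.4 CPM. Mtor had 49.8, 56.8, 47.0 and 51.3 CPM and did not pass the test (adjusted p = 0.0510 over all genes tested, chi-square test). Larp1 and Mycn shared their lowest tumour with most ribosomal protein genes, and Myc and Mtor were nearly level between tumours 2 and 3 or across all of them.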

How the data were processed

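Polyadenylated RNA from suspensions of 4 lung tumours was sequenced with a stranded kit, starting at 500 ng of total RNA, in single-end reads of 85 nt. Per the labels and the study's methods the authors trimmed reads with cutadapt (1.4.2 in the submitters' processing notes, another version in the methods), aligned them to mm10 with HISAT2 and counted them per gene with featureCounts 1.4.4, and the deposited counts are raw. The authors also deposited a log2 table of TMM and voom values, used here as an alternative. The combined and single tables were equal in 156068 of 156068 values.

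TMM factors (edgeR 4.0.16) were recomputed, log2 CPM used 0.5 added to each count, and the 14225 genes averaging 1 CPM or more were tested. Spread was tested by chi-square with 3 degrees of freedom, after a check on simulated data, and pairs within tumours by sign-flip permutation. Lengths, positions and near-identical genes (BLAST 2.17.0) came from GENCODE M21 on GRCm38, which held all 76 identifiers. Members and lists were chosen with earlier results of these data known. Named in full were the 5 highest and lowest members per kb, the 5 with the largest and smallest SD at a mean CPM of at least 10, members with 1 tumour apart, role groups, Rpl30 and examples of the members whose level per kb moves over 2-fold with unique windows. No member had a mean CPM under 1. Alternatives were DESeq2 size factors (1.42.0), library size only, TMM without these genes, other filters, other lengths, a G test and leaving out each tumour. Total counts were 8151613 to 8799007 per tumour, and no member had under 58 counts in any of them. Some items are not reported here.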

Additional observations from a re-analysis of the deposited data

Results flagged for a closer look

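Of 118 values tested for 1 tumour far from the rest, 8 were beyond Dixon's limit, which chance passes in about 1 of 20 groups. Among ribosomal protein genes tumour 3 was far below the others for Rplp0 (368 CPM), Rpl6 (222 CPM) and Rps15 (264 CPM), and among paralogs for Rpl22l1 (28.1 CPM). It was also far below for Larp1 (121 CPM) and for the mean log2 CPM of the translation factor and TOP mRNA list (8.45). Tumour 3 was far above the others for the T cell markers (mean log2 CPM 1.88, from the 4 of 6 genes tested). Of these genes 3 were highest in tumour 3, while Lck was lowest there (2.34 CPM). For the alveolar type 2 markers it was tumour 1 that lay far below (mean log2 CPM 10.77). The part of either marker list in the ribosomal protein values was not tested.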

How the results depend on the processing

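No paired analysis was possible because the 4 tumours form 1 group, so no groups could be paired, and the sign-flip tests paired genes within a tumour. Over 16 results and 137 alternatives, 126 were counted as unchanged. For the subunit and paralog differences this asked only for the same sign, and for the other results for a value near the main one. Dropping the filter could not move the log2 results, since every member passed it. The mean share of counts of 2.23% was 2.62% with the ribosomal proteins outside the rule and the named pseudogenes, and 2.87% with near-identical genes, larger by construction. Members with 1 tumour apart numbered 5 in place of 3 with library size only, the cause was not tested. The pseudogene percentage was 12.8 in place of 14.2 with annotated pseudogene biotypes only. Large minus small subunit reversed to 0.22 with exon union length and to 0.50 with the 6 members without a near-identical copy. Rpl36al minus Rpl36a reversed to -0.67 and Rps27l minus Rps27 to -5.13 with unique windows, which shorten the length of the second gene. Leaving out 1 tumour gave an SD of the mean log2 CPM from 0.057 to 0.21, a median SD from 0.17 to 0.31 and an SD of Rpl30 from 0.064 to 0.22, each lowest without tumour 3. Members called were 66 without tumour 3, against 62.4% of all genes. Windows unique in the genome were not run, and annotated transcripts were used instead, an alternative chosen after seeing the data, as were the sums with near-identical genes, the 76 rows and the chromosome medians. Dixon's ratio was not run on 3 tumours. The lowest count of a member in any tumour was 58.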
